A study of Zea mays with 24 samples.

Results

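CesA10, CesA11 and CesA12 are the maize cellulose synthases of the secondary cell wall. Every probe set of the array whose annotated gene has cesa10, cesa11 or cesa12 as its symbol or synonym, in any case, was taken, which gave 3 probe sets of 17734, 1 for each gene, and all 3 are reported in every tissue and treatment. The gene models are GRMZM2G445905 for CesA10, GRMZM2G037413 and GRMZM2G055795 for CesA11 and GRMZM2G142898 for CesA12. The ending of the CesA11 probe set's name, _s_at, is the manufacturer's mark for probes that can match more than 1 transcript, so its signal may not be of CesA11 alone. The annotation gives 1 gene for 1452 probe sets and none for 16281, and the latter could not be searched.

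Cellulose is made at the plasma membrane by rosette-shaped complexes of CesA proteins, each of which is a catalytic subunit that joins glucose from UDP-glucose into a glucan chain. CesA proteins carry a zinc-binding RING-type domain near their amino terminus, through which subunits are thought to pair. Plants use separate sets of CesA genes for the primary wall of growing cells and for the secondary wall that xylem vessels and fibres lay down once growth has stopped. In Arabidopsis the secondary wall set is CESA4, CESA7 and CESA8, all of which are needed, and their loss gives collapsed xylem. Maize CesA10, CesA11 and CesA12 are the counterparts of that set.

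The arrays were hybridised with RNA of roots and shoots of the maize inbred line SKV-616, grown in hydroponics and harvested 12 days after transplanting to the nutrient solutions. The control was a complete solution (+Fe+Zn), and the stresses were a solution without Zn (–Zn), without Fe (–Fe) and without both (–Fe–Zn). Each of the 8 combinations of tissue and treatment has 3 replicates, 24 arrays in all. The labels number the replicates and do not say whether they come from separate plants. The sources do not give the number of plants behind a sample, all plants are of 1 line and 1 harvest time, and root and shoot are whole organs in which xylem and fibres are a part, so fewer cells of a type and less RNA per cell cannot be told apart.

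The values are on the log2 scale, 1 per probe set and array, and a difference of 1 is a 2-fold change. Leaf markers (21 probe sets of photosynthesis genes) had array medians of 3.16 to 4.09 in the root groups and of 7.92 to 12.24 in the shoot groups, and 18 of the 21 were higher in shoot than in root under +Fe+Zn while 1 was higher in root. The 9 probe sets drawn up as root markers did not mark the root well, since 2 were higher in root and 1 was higher in shoot under +Fe+Zn. Replicates of the root –Fe–Zn group correlated at 0.952 to 0.987 and those of the shoot –Fe–Zn group at 0.974 to 0.988, against 0.989 or more in the other groups. The spike-in control BioB also set the root –Fe–Zn arrays apart, with a mean of 12.46 against 5.40 in control roots. The loss of signal from the 3′ to the middle probe sets of control transcripts can reflect RNA length. It averaged 7.09 in control roots and 9.26 in control shoots on the log2 scale. This loss was 6.27 under –Fe in shoots, and the root –Fe–Zn arrays ranged from 4.44 to 7.99.

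All 3 genes were higher in the root than in the shoot under each of the 4 treatments. On the control arrays CesA10 read 9.32, 9.38 and 9.32 in roots and 3.95, 3.94 and 4.08 in shoots. CesA12 read 6.38, 6.74 and 6.998 in roots and 3.70, 3.68 and 4.00 in shoots. CesA11 read 4.12, 4.70 and 4.61 in roots and 2.66, 2.38 and 2.58 in shoots, where its values lay close to 2.24, the lowest in the table. The root and shoot arrays did not overlap for any of the 3 genes, and the share of all probe sets without overlap was not counted. Relative to the root, the control shoot was 40.8-fold lower in CesA10 (log2 difference −5.35, SE 0.17, limma adjusted p = 1.56e-14) and 7.53-fold lower in CesA12 (−2.91, SE 0.27, adjusted p = 3.07e-08). CesA11 was 3.83-fold lower (−1.94, SE 0.40, adjusted p = 0.000372), a fold that the floor of the shoot values limits. These 3 of 3 calls stand beside 26% of all probe sets called lower in the control shoot than in the root, with 28.4% in the –Zn, 27.7% in the –Fe and 22.7% in the –Fe–Zn comparison. The CesA11 call was lost under –Zn without the third –Zn root replicate (−1.07, adjusted p = 0.0613), under –Fe with quantile normalization (−1.05, adjusted p = 0.076) and under –Fe–Zn with the groups compared alone (−1.99, adjusted p = 0.124). With the 3′-to-middle loss as a covariate, CesA11 turned to 0.59 under –Zn and to 0.39 under –Fe–Zn.

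The order of the 8 groups was much alike for the 3 genes, with the root groups above the shoot groups and shoot –Zn as the highest of the shoot. CesA10 ran from 9.34 in control roots through –Fe–Zn at 9.21 and –Zn at 9.09 to –Fe at 8.33. Neighbours among the first 3 were not called by limma (adjusted p = 0.715 and 0.694). In the shoot CesA10 ran from 5.18 in the –Zn group to 4.37 with –Fe, 4.19 with –Fe–Zn and 3.99 in the control. Neighbours among the last 3 were not called (adjusted p = 0.456 and 0.412). The outer pairs, control with –Zn roots and control with –Fe shoots, did not overlap and were not called (adjusted p = 0.439 and 0.109). CesA12 was highest in –Zn roots at 6.86, next to 6.71 in control roots, and lowest in –Fe shoots at 3.25. Its –Fe roots at 5.63 and its –Zn shoots at 5.18 were neighbours across the tissues, and the difference of 0.46 was not called (adjusted p = 0.173). For CesA11, with means of 4.58 in –Fe–Zn roots down to 2.38 in –Fe shoots, no pair of neighbours differed at an adjusted p under 0.05.

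**Figure D1:**
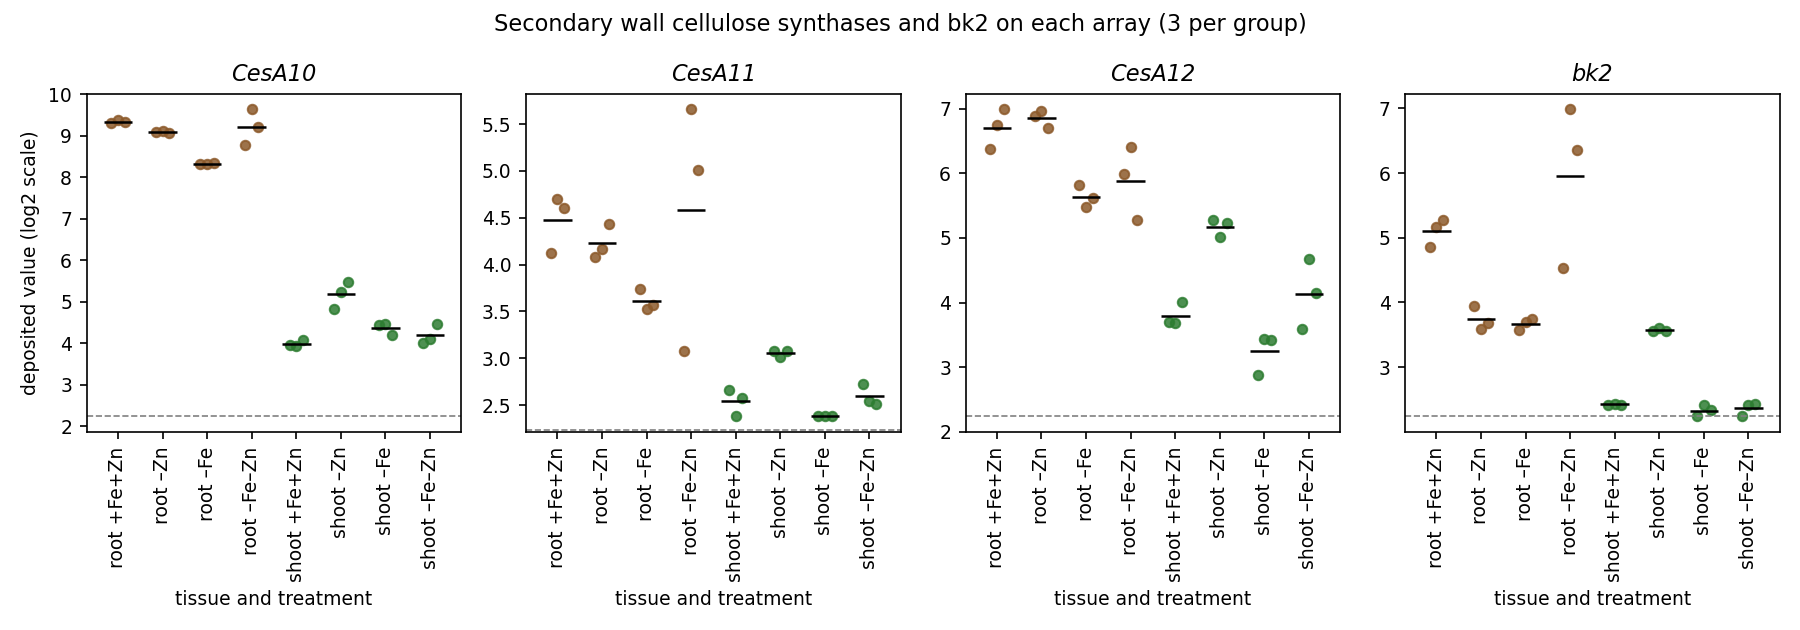
Deposited log2 value (vertical axis, a separate scale for each gene) of CesA10, CesA11, CesA12 and the COBRA-like gene bk2 on every array, by tissue and treatment, with root arrays in brown, shoot arrays in green, a bar at the mean of each group of 3 and a dashed line at 2.24, the lowest value of the table. Within each treatment the root arrays of the 3 CesA genes lie above the shoot arrays, the –Fe root arrays lie below the control root arrays, and the –Zn shoot arrays are the highest of the shoot.

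Iron deficiency alone lowered CesA10 and CesA12 in the root about 2-fold. CesA10 read 8.31, 8.32 and 8.34 in –Fe roots, each below the lowest control array at 9.32. CesA12 read 5.81, 5.48 and 5.61 against 6.38 to 6.998 in the control, and CesA11 read 3.74, 3.53 and 3.57 against 4.12 to 4.70. In none of the 3 genes did the –Fe arrays overlap the control arrays, and how many of all probe sets separated so was not counted. CesA10 was downregulated 2.02-fold (log2 difference −1.01, 95% interval −1.38 to −0.65, limma adjusted p = 0.00024) and CesA12 2.1-fold (−1.07, interval −1.64 to −0.50, adjusted p = 0.00588). CesA11 did not pass the adjusted test (−0.87, interval −1.70 to −0.03, adjusted p = 0.137).

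The 2 of 3 genes called lower in –Fe roots stand beside 10.9% of all probe sets called lower there (25.6% in either direction), and the median difference of the 3 was −1.01 against 0.00 over all probe sets. Both calls held when any array of the compared groups was left out, with CesA10 between −1.03 and −0.99 and CesA12 between −1.24 and −0.93. The model estimates 1 spread per probe set from all 24 arrays, and the root –Fe–Zn arrays of CesA11 lie far apart at 3.08, 5.66 and 5.01. Fitted without the root –Fe–Zn arrays, CesA11 was called lower in –Fe roots as well (−0.87, adjusted p = 6.29e-05). The 3′-to-middle loss averaged 6.50 in –Fe roots against 7.09 in control roots, and with it as a covariate CesA10 stood at −1.12 (adjusted p = 1.33e-05), CesA12 at −1.06 (adjusted p = 0.00847) and CesA11 at −1.21 (adjusted p = 0.000236).

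Zinc deficiency alone raised CesA10 and CesA12 in the shoot more than 2-fold. CesA10 read 4.83, 5.23 and 5.47 in –Zn shoots against 3.95, 3.94 and 4.08 in control shoots. CesA12 read 5.27, 5.02 and 5.24 against 3.70, 3.68 and 4.00. CesA11 read 3.08, 3.01 and 3.08 against 2.66, 2.38 and 2.58. Every –Zn shoot array lay above every control shoot array in each of the 3 genes. How many of all probe sets separated in this way was not counted. CesA10 was upregulated 2.28-fold (log2 difference 1.19, interval 0.82 to 1.56, adjusted p = 2.51e-05) and CesA12 2.61-fold (1.38, interval 0.81 to 1.95, adjusted p = 0.000442), while CesA11 did not pass the test (0.52, interval −0.32 to 1.36, adjusted p = 0.359).

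The 2 of 3 genes called higher stand beside 20.3% of all probe sets called higher in –Zn shoots (39.3% in either direction), and the median difference of the 3 was 1.19 against 0.00 over all probe sets. Leaving out any array of the compared groups gave 1.04 to 1.37 for CesA10 and 1.33 to 1.49 for CesA12, all called. Without the root –Fe–Zn arrays in the model, CesA11 was called too (0.52, adjusted p = 0.00325). The leaf markers moved the other way, with 13 of 21 called lower and none called higher in –Zn shoots, beside 19% of all called lower. Their array medians were 9.84 to 10.69 against 12.05 to 12.12 in control shoots, and their part in the result was not tested. The 3′-to-middle loss was 9.27 in –Zn shoots and 9.26 in control shoots, and with it as a covariate CesA10 stood at 1.19 and CesA12 at 1.38. These averages cover several control transcripts. For cyclophilin alone the middle probe set averaged 2.76 in –Zn shoots and 4.84 in control shoots, and the 3′ one 13.57 and 13.74. Equal averages therefore need not mean equal RNA length, which was not tested.

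**Figure D2:**
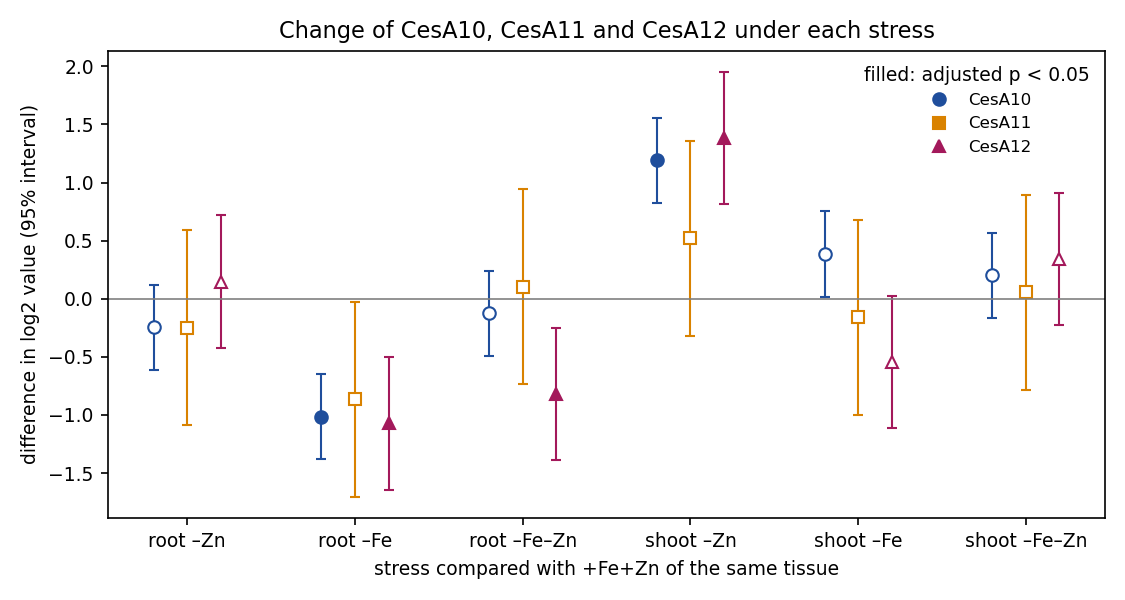
Difference in log2 value from +Fe+Zn of the same tissue (vertical axis) for each of the 3 genes under each stress, with 95% intervals from the limma model and filled symbols for an adjusted p under 0.05. CesA10 and CesA12 lie near −1 in –Fe roots and above 1 in –Zn shoots, and the other differences of CesA10 and all of CesA11 have open symbols, while CesA12 is also filled in –Fe–Zn roots at −0.82.

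Zinc deficiency alone gave no called change in the root. CesA10 read 9.09, 9.11 and 9.08 in –Zn roots, below every control array, yet the difference of −0.25 (interval −0.61 to 0.12) was not called (adjusted p = 0.439). CesA12 read 6.89, 6.97 and 6.70 and CesA11 read 4.08, 4.17 and 4.43, and both overlapped their controls. Their differences were 0.15 for CesA12 (interval −0.42 to 0.72) and −0.25 for CesA11 (interval −1.09 to 0.59). None of the 3 genes was called in –Zn roots, where 21.9% of all probe sets were called in either direction, and none of the 3 unadjusted p values was under 0.05. Fitted on the 6 arrays compared and no others, CesA10 was called lower in –Zn roots with the same difference (adjusted p = 0.00274).

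Under the combined stress the root replicates spread widely and CesA12 alone was called. CesA10 read 8.77, 9.65 and 9.22 in –Fe–Zn roots, on both sides of the control arrays, and differed from them by −0.13 (interval −0.49 to 0.24, adjusted p = 0.715). CesA11 read 3.08, 5.66 and 5.01, below and above every control array, and differed by 0.10 (interval −0.73 to 0.94). Without the first replicate of the –Fe–Zn roots, CesA11 was instead called higher by 0.86 (adjusted p = 0.000852). CesA12 read 5.99, 6.40 and 5.27, overlapping the lowest control array at 6.38, and was downregulated 1.77-fold (−0.82, interval −1.39 to −0.25, adjusted p = 0.0299).

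That 1 of 3 genes called lower stands beside 20% of all probe sets called lower in –Fe–Zn roots (28.1% in either direction), and the call on CesA12 was lost when 1 of 3 arrays was left out. It stood at −0.80 (adjusted p = 0.077) without the second and at −0.68 (adjusted p = 0.127) without the third control replicate, and at −0.51 (adjusted p = 0.161) without the third –Fe–Zn replicate. It was also lost with quantile normalization (−0.50, adjusted p = 0.195), with 1 fit per tissue (adjusted p = 0.0639), with the groups compared alone (adjusted p = 0.284) and when each array was centred on its median (−0.57, adjusted p = 0.0766), a scaling that moved the median of all probe sets in this comparison by 0.25. The 3′-to-middle loss of the –Fe–Zn roots ran from 4.44 to 7.99 against 6.93 to 7.18 in control roots, and with it as a covariate CesA12 stood at −0.78 (adjusted p = 0.0763) and CesA11 turned to −0.71 (adjusted p = 0.0279).

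Of the shoot stresses, neither –Fe nor –Fe–Zn gave a called change. CesA10 read 4.45, 4.46 and 4.21 in –Fe shoots, above every control array, and the difference of 0.39 (interval 0.02 to 0.75) did not pass the adjusted test (adjusted p = 0.109). CesA12 read 2.88, 3.44 and 3.43, below every control array, with a difference of −0.54 (interval −1.11 to 0.03, adjusted p = 0.152). CesA11 read 2.38 on each of the 3 arrays, the same value as 1 of the control arrays and the lowest it had in the series. The 2 genes that did not overlap their controls lay on opposite sides of them, and how many of all probe sets separated so was not counted. Neither direction was called in the model of all 24 arrays, where 33.4% of all probe sets were called in –Fe shoots and 1 of the 3 genes, CesA10, had an unadjusted p under 0.05.

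The –Fe shoots stood apart in 3′-to-middle loss, at 6.27 against 9.26 in control shoots, and loss and treatment cannot be told apart there. With the loss as a covariate the CesA10 difference in –Fe shoots was −0.15 (adjusted p = 0.708) and the CesA11 difference was −1.88 (adjusted p = 0.000196). Fitted without the root –Fe–Zn arrays, CesA10 was called higher (0.39, adjusted p = 0.0291).

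In –Fe–Zn shoots CesA10 read 4.01, 4.10 and 4.46, CesA11 read 2.72, 2.54 and 2.51, and CesA12 read 3.59, 4.67 and 4.15. All 3 overlapped their controls, with differences of 0.20 for CesA10 (interval −0.17 to 0.57), 0.05 for CesA11 (interval −0.78 to 0.89) and 0.34 for CesA12 (interval −0.23 to 0.91). None was called, beside 44.6% of all probe sets, and none had an unadjusted p under 0.05. The leaf markers were lower here too, with 16 of 21 called lower, beside 22.2% of all probe sets, and array medians of 7.92 to 9.93.

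The study's methods counted a probe set when p was below 0.05 without adjustment and the fold change was 2 or more, and by that rule the counts of the 3 genes were the same in –Fe roots (2 lower, beside 5.24% of all probe sets) and –Zn shoots (2 higher, beside 7.76%). None was counted in –Zn roots (7.89% of all probe sets in either direction), –Fe–Zn roots (11.1%), –Fe shoots (16.2%) or –Fe–Zn shoots (24.4%).

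The design crosses the presence of Fe with that of Zn, so whether the combined stress was the sum of the single stresses could be tested within each tissue. For CesA10 it was not the sum in either tissue. In the root the combined stress lay 1.14 above the sum (SE 0.25, adjusted p = 0.00131), the single stresses being −0.25 and −1.01 and the combined one −0.13. In the shoot it lay 1.38 below the sum (−1.38, SE 0.25, adjusted p = 0.000402), the single stresses being 1.19 and 0.39 and the combined one 0.20. With the 3′-to-middle loss as a covariate the shoot value for CesA10 was −0.74 and was not called (adjusted p = 0.0597).

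CesA12 was not called in this test, with a root value of 0.10 (interval −0.70 to 0.91) and a shoot value of −0.50 (interval −1.30 to 0.31). CesA11 was not called either, with a root value of 1.22 (interval 0.04 to 2.40, adjusted p = 0.107) and a shoot value of −0.31. Without the first –Fe–Zn root replicate the root value of CesA11 was 1.97 and was called (adjusted p = 3.02e-06). The 1 of 3 genes called in each tissue stands beside 35.7% of all root tests and 24.4% of all shoot tests.

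The stresses were also compared with each other. In the root, –Fe lay below –Zn by 0.77 for CesA10 (log2 difference −0.77, adjusted p = 0.00388) and by 1.22 for CesA12 (−1.22, adjusted p = 0.00317), 2 of 3 genes beside 19.4% of all probe sets. In the shoot, –Fe lay below –Zn by 0.81 for CesA10 (−0.81, adjusted p = 0.000912) and by 1.93 for CesA12 (−1.93, adjusted p = 1.17e-05), 2 of 3 beside 45%. CesA11 lay in the same order in both tissues and was not called (root −0.62, adjusted p = 0.379, and shoot −0.68, adjusted p = 0.19). For CesA10 and CesA12 the level under –Fe was therefore lower than under –Zn in root and shoot alike.

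Adding Fe deficiency to Zn deficiency lowered CesA10 and CesA12 in the shoot. The –Fe–Zn shoots lay below the –Zn shoots by 0.99 in CesA10 (−0.99, adjusted p = 0.000378) and by 1.04 in CesA12 (−1.04, adjusted p = 0.00892), and 2 of 3 genes were called beside 22.6% of all probe sets. CesA11 differed by −0.46 (interval −1.30 to 0.37) and was not called. The arrays of the 2 groups did not overlap in any of the 3 genes, and the share of all probe sets without overlap was not counted. With the groups compared alone the calls on CesA10 (adjusted p = 0.0612) and CesA12 (adjusted p = 0.121) were lost. Against the –Fe shoots, the –Fe–Zn shoots were higher in CesA12 by 0.88 (adjusted p = 0.0118), 1 of 3 beside 45.4%. This call was lost without the second –Fe–Zn replicate (0.62, adjusted p = 0.0819) or without the first –Fe replicate (0.70, adjusted p = 0.07), with the 3′-to-middle covariate (0.78, adjusted p = 0.231) and with the groups compared alone (adjusted p = 0.12).

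In the root, adding Zn deficiency to Fe deficiency raised CesA10 by 0.89 (adjusted p = 0.000545), from 8.33 to 9.21 on average, and all –Fe–Zn arrays lay above all –Fe arrays. CesA11 differed by 0.97 (adjusted p = 0.0659) and CesA12 by 0.25 (adjusted p = 0.543), and 1 of 3 genes was called beside 37.4% of all probe sets. Fitted on the groups compared alone, the CesA10 call was lost (adjusted p = 0.077). Without the first –Fe–Zn replicate the CesA11 difference was 1.72 and was called (adjusted p = 4.74e-07). Against the –Zn roots, the –Fe–Zn roots were lower in CesA12 by 0.97 (−0.97, adjusted p = 0.00875), 1 of 3 beside 36%, a call lost without the third –Fe–Zn replicate (−0.66, adjusted p = 0.0551), with quantile normalization (−0.54, adjusted p = 0.144) and with the groups compared alone (adjusted p = 0.13).

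Whether a stress changed a gene differently in shoot and root was tested as the difference of the 2 changes. Under –Zn the shoot change exceeded the root change by 1.44 in CesA10 (SE 0.25, adjusted p = 0.000178) and by 1.23 in CesA12 (SE 0.38, adjusted p = 0.0171), 2 of 3 genes beside 35.2% of all probe sets. Under –Fe the difference was 1.40 in CesA10 (SE 0.25, adjusted p = 0.000262), the 1 gene of 3 called beside 30.4%, and 0.53 in CesA12 (adjusted p = 0.38). Under –Fe–Zn it was 1.16 in CesA12 (SE 0.38, adjusted p = 0.0204), 1 of 3 beside 42.1%, and 0.33 in CesA10 (adjusted p = 0.318). That call on CesA12 was lost with quantile normalization (0.73, adjusted p = 0.135), median centring (0.81, adjusted p = 0.0672), the 3′-to-middle covariate (1.11, adjusted p = 0.0588), the groups compared alone (1.16, adjusted p = 0.102) and without any of 3 arrays (0.85 to 1.02, adjusted p of 0.0565 to 0.0638). CesA11 was not called under any of the 3 stresses, with differences of 0.77, 0.71 and −0.05.

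Across the 8 group means the 3 genes followed each other closely, at r = 0.972 between CesA10 and CesA11, 0.921 between CesA10 and CesA12 and 0.931 between CesA11 and CesA12. In all 3 genes every root mean lies above every shoot mean, and the points share arrays and scaling, so these values are a description. Within the 4 root groups r was 0.968 for CesA10 with CesA11, 0.667 for CesA10 with CesA12 and 0.465 for CesA11 with CesA12. Within the 4 shoot groups the same pairs stood at 0.840, 0.772 and 0.987. In the deviations of the 24 arrays from their group means, CesA10 and CesA11 stood at 0.636, whereas CesA12 stood at 0.166 with CesA10 and 0.083 with CesA11. The –Fe–Zn root replicates show the contrast, since the second replicate was the highest of the 3 in each gene, while the lowest was the first in CesA10 and CesA11 and the third in CesA12.

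The gene bk2 (brittle stalk2) encodes a COBRA-like protein that maize needs for cellulose deposition in secondary walls, and its mutants have stalks that snap. In the root bk2 read 4.85, 5.17 and 5.27 in the control, 3.95, 3.59 and 3.68 on the –Zn arrays, 3.57, 3.70 and 3.75 on the –Fe arrays, and 4.53, 6.99 and 6.36 on the –Fe–Zn arrays. Its shoot arrays read 2.42, 2.44 and 2.42 in the control and 3.56, 3.61 and 3.56 with Zn withheld, and lay between 2.24 and 2.43 under –Fe and –Fe–Zn. Its –Zn shoot arrays lay above all other shoot arrays, and in the root every array of both single stresses lay below every control array. The bk2 gene was upregulated in –Zn shoots (1.15, SE 0.37, adjusted p = 0.0196) and downregulated in –Fe roots (−1.43, adjusted p = 0.00776), as CesA10 and CesA12 were, and it was also downregulated in –Zn roots (−1.36, adjusted p = 0.0125), where those 2 were not called. In the root the combined stress lay 3.65 above the sum of the single ones (SE 0.53, adjusted p = 2.75e-05).

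The annotation holds 4 probe sets of 3 COBRA-like genes, bk2, Bk2L3 and Bk2L6. All 4 were called higher in –Zn shoots (median difference 0.98 against 0.00 over all probe sets, beside 20.3% of all called higher), with 0.80 and 0.74 for the 2 probe sets of Bk2L3 and 1.35 for Bk2L6. In control shoots Bk2L6 averaged 2.48 and bk2 2.42, close to the lowest value of the table at 2.24, so their differences there may understate a rise. In –Fe roots 3 of the 4 were called lower and none higher, beside 10.9% of all probe sets called lower, with −0.76 and −0.72 for Bk2L3, while Bk2L6 stood at 0.68 and was not called (adjusted p = 0.214). Bk2L6 had its largest difference in –Fe–Zn shoots, where it averaged 5.97, at 3.49 (SE 0.36, adjusted p = 3.35e-07), where Bk2L3 fell by 0.89 and 0.88 and none of CesA10, CesA11 and CesA12 was called.

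The synthases annotated as CesA1 to CesA9, which are not of the secondary wall set, were measured by 10 probe sets. In –Zn shoots 8 of the 10 were called higher and none lower, beside 20.3% of all probe sets called higher. The median difference of the 10 was 0.73 against 0.00 over all probe sets. CesA4 had the largest differences of them there, 2.31 and 2.09 for its 2 probe sets, and CesA7 stood at 1.06 and CesA3 at 0.93. In the root the count ran the other way under every stress, with 6 of 10 lower and 1 higher for –Zn (median −0.55), 8 lower and 1 higher for –Fe (median −0.84) and 8 lower and 1 higher for –Fe–Zn (median −1.12). The backgrounds of probe sets called lower in these roots were 8.46%, 10.9% and 20%.

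The exception in the root was CesA3, which was higher by 0.80 with –Zn, by 0.55 with –Fe and by 0.79 with –Fe–Zn, all called. CesA3 was also the gene of the family with the largest difference in –Fe shoots, where it rose from 4.62 to 8.22 (3.60, SE 0.14, adjusted p = 1.9e-12). In –Fe shoots 6 of the 10 probe sets were called lower and 3 higher, beside 16.4% and 17% of all probe sets, where CesA2 stood at −1.11 and CesA7 at −1.14. In –Fe–Zn roots CesA2 stood at −1.995 and CesA1 at −1.58, both called, while CesA10 at −0.13 was not. A difference between the secondary wall genes and CesA1 to CesA9 was not tested.

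**Figure D3:**
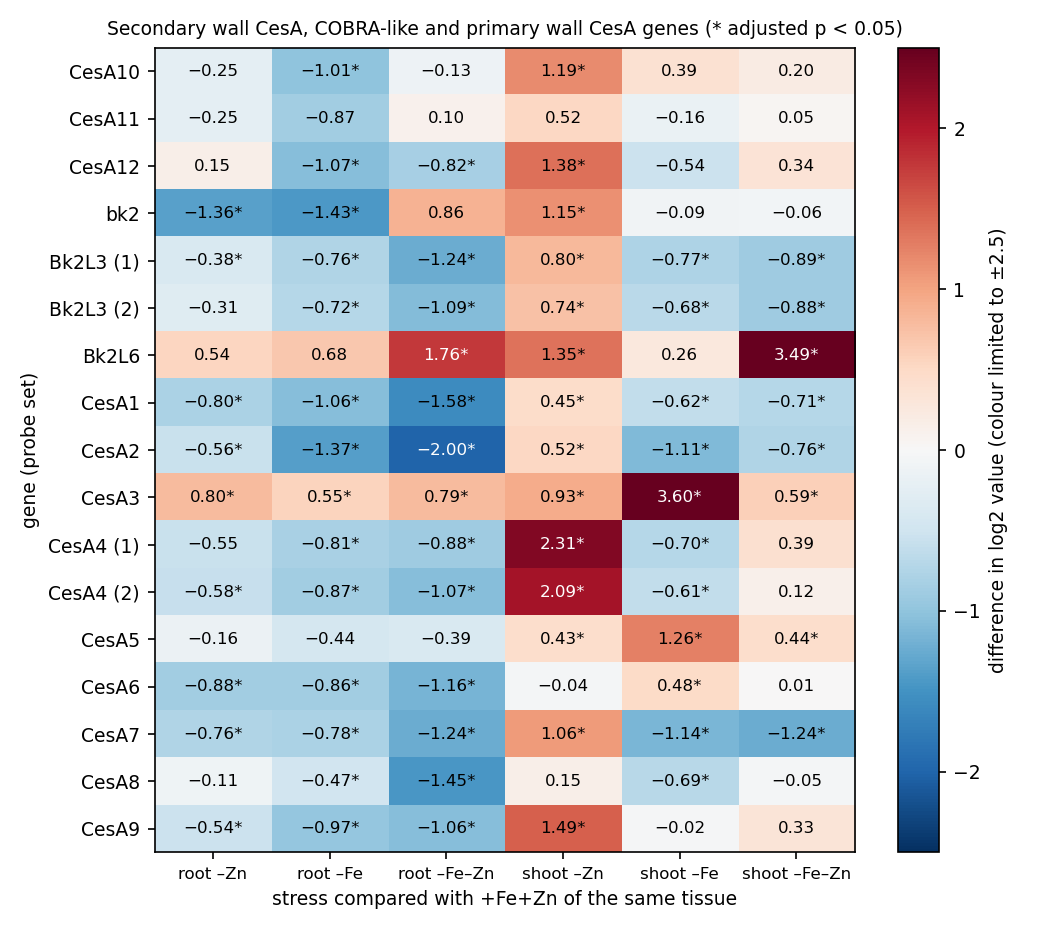
Difference in log2 value from +Fe+Zn of the same tissue (colour and number, limited in colour to ±2.5) for CesA10 to CesA12, the COBRA-like genes and CesA1 to CesA9, 1 row per probe set and 1 column per stress, with a star for a limma adjusted p under 0.05. In the –Zn shoot column 14 of the 17 rows carry a star with a positive value, and in the –Fe root column 13 rows carry a star with a negative value.

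Lignin fills the secondary wall after its cellulose has been laid down, and 8 probe sets of 7 genes of that pathway are annotated. In –Zn shoots, where CesA10 and CesA12 rose, 4 of them were called lower and 1 higher, with a median difference of −0.48, beside 19% of all probe sets called lower and 20.3% higher there. The 4 were PAL1, the entry enzyme of phenylpropanoid synthesis, at −1.68, 4CL, which activates cinnamic acids, at −2.62, CCR1, which makes the first aldehyde specific to lignin, at −1.62, and BM1, a cinnamyl alcohol dehydrogenase, at −0.96. LAC1, a laccase of the kind that couples lignin units, was higher by 0.57 (adjusted p = 0.0054). The same 4 enzymes were also called lower in –Fe and –Fe–Zn shoots, beside 16.4% and 22.2% of all probe sets. Others of the list went the other way. In –Fe shoots 2 were called higher, LAC1 at 0.93 and a probe set of the MYB factor gene myb42 at 0.87, beside 17% of all probe sets. In –Fe–Zn shoots 1 was called higher, the same myb42 probe set at 0.72. The difference between the lignin genes and the synthases was not tested.

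In –Fe roots 4 of the 8 lignin probe sets were called lower and none higher (median −0.78), beside 10.9% of all probe sets called lower, namely 4CL at −1.15, CCR1 at −1.03, LAC1 at −1.36 and 1 of the 2 probe sets of myb42, a MYB factor of the phenylpropanoid pathway, at −0.93. Of these, LAC1 and the same myb42 probe set were called lower under each root stress, with −1.49 and −2.81 in –Zn roots. The other probe set of myb42, which lay near the lowest value of the table in most groups, was not called under any stress.

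Sucrose synthases release UDP-glucose from sucrose, the substrate of the synthases, and 5 probe sets of 3 genes are annotated. The sus2 probe set averaged 4.54 in control shoots and was called lower in all stressed shoots, at 3.03 with –Fe (−1.51), 2.37 with –Zn and 2.30 with –Fe–Zn. The last 2 means lie close to 2.24, the lowest value of the table, so those falls are not measured in full. It was called lower in stressed roots too, but there its means of 2.29 to 2.33 lay at that floor and 1 control root array was no higher than the –Zn arrays (2.33), so no size is given. The sus1 gene was lower in –Fe roots at −1.73 (adjusted p = 0.00213), where 2 of the 5 were called lower beside 10.9% of all probe sets. Of 3 sh1 probe sets, 1 was lower in –Zn shoots at −1.32 (adjusted p = 0.000102), and the others lay at or near the lowest value of the table in every group.

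**Figure D4:**
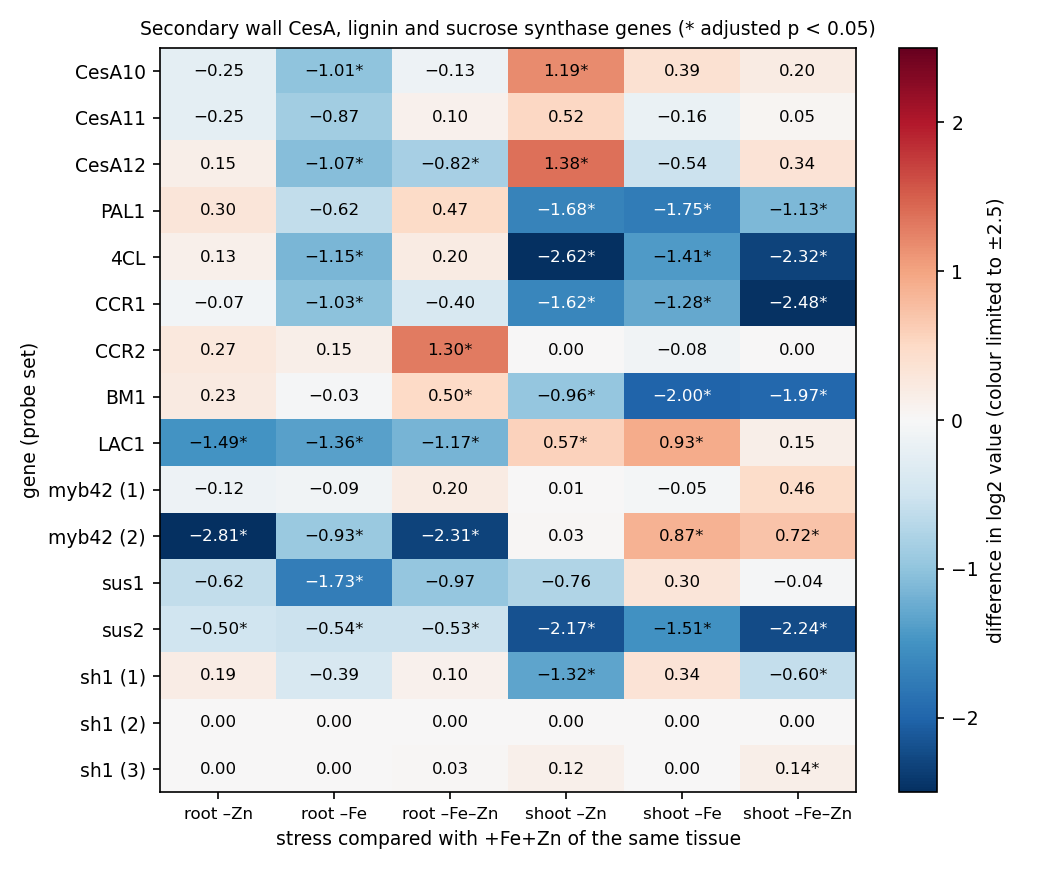
Difference in log2 value from +Fe+Zn of the same tissue (colour and number, limited in colour to ±2.5) for CesA10 to CesA12, genes of the lignin pathway and sucrose synthases, 1 row per probe set and 1 column per stress, with a star for a limma adjusted p under 0.05. In the –Zn shoot column CesA10 and CesA12 are positive at 1.19 and 1.38 while PAL1, 4CL, CCR1, BM1, sus2 and 1 probe set of sh1 are negative.

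Likeness to the 3 genes was measured as the correlation of a probe set's 8 group means with the average of their centred group means, over the 11069 probe sets whose group means span at least 1 on the log2 scale, of which 1010 carry a gene name. The 5 most alike of the named ones were 2 probe sets of IIG1 (r = 0.987 and 0.973), the histone H2B gene his2b5 (0.980), the tonoplast aquaporin gene por2, also named TIP2-3 (0.977), and the plasma membrane aquaporin gene PIP2-6 (0.973). In all, 30 probe sets, named or not, reached the fifth of these. Each of the 5 was far higher in control roots than in control shoots (log2 differences of −9.17 to −5.32 for shoot against root), a gap that enters r at every one of the 8 points. The gene bk2 came at place 152 of the 1010, with r = 0.858.

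In –Fe roots and –Zn shoots, where CesA10 and CesA12 were called, por2 was called in the same directions. The 5 were picked by their likeness over group means that include these groups, so a shared direction is partly built in. A difference of the 5 from the synthases was not tested. In –Fe roots por2 was lower by 2.49 (−2.49), PIP2-6 by 2.09 (−2.09) and the IIG1 probe sets by 1.89 and 1.96 (−1.89 and −1.96), all called, while his2b5 at −0.15 was not. In –Zn shoots his2b5 at 1.71 and por2 at 0.71 were called higher, while PIP2-6 at −0.28 and both IIG1 probe sets were not.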

How the data were processed

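RNA of roots and shoots of maize seedlings was measured on 24 one-colour Affymetrix GeneChip Maize Genome Arrays. The authors deposited 1 log2 value per probe set and array, which the study's methods say came from GCRMA. The submitters' processing notes list RMA, affy and limma and give no version, so the background correction that sets the low values is not settled. Labels gave each array its group, and no column was left without a sample.

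Values were used as deposited. In R 4.3.3 with limma 3.58.1, lmFit with 8 group means and eBayes was run on all 17734 probe sets, of which 113 are the manufacturer's controls, and a probe set was called where its p, adjusted over all of them after Benjamini and Hochberg, was under 0.05. The limma fit was tested on simulated data with changes added to the –Fe roots, and the other steps were not tested in this way. Precision is limited by 3 arrays a group, where an exact permutation test of 1 gene cannot go below a two-sided p of 0.10. Genes came from the array's annotation and, for synonyms, from RefSeq by gene ID (1377 probe sets matched). No coordinates or sequences were used here.

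The genes and lists were chosen with earlier results of these data known. Named list genes are at most 4 per list, those called in the most stress comparisons, beside others shown for contrast after their values were seen. Alternatives were centring on the array median, quantile normalization, leaving out probe sets that were dim in every group (under the 40th percentile), another variance prior, other sets of arrays, the replicate number as a block, the 3′-to-middle loss as a covariate, no control probe sets and leaving out each array. Same-numbered arrays of a stress and its control deviated together at r of −0.117 to 0.292, in no comparison above 0.1 for all 3 numbers, so the numbers were not taken as pairs.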

Additional observations from a re-analysis of the deposited data

Results flagged for a closer look

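These 4 results were flagged by the limma test of whether a stress changed a gene differently in shoot and root, adjusted over all 17734 probe sets. Such a call was common on the array. The –Zn stress gave it for 35.2% of all probe sets, –Fe for 30.4% and –Fe–Zn for 42.1%. Of the 3 genes, 2 were called with Zn withheld, 1 with Fe withheld and 1 with both withheld. The flag alone therefore does not set these genes apart from other probe sets. For CesA10 the shoot change under –Zn exceeded the root change by 1.44 on the log2 scale (adjusted p = 0.000178), with all 3 shoot arrays above and all 3 root arrays below their controls. For CesA12 the same difference under –Zn was 1.23 (adjusted p = 0.0171), the shoot being higher in 3 of 3 arrays and the root overlapping its control. For CesA10 the difference under –Fe was 1.40 (adjusted p = 0.000262), with 3 of 3 root arrays lower and 3 of 3 shoot arrays higher, although the shoot change was not called by itself and the –Fe shoots stood apart in 3′-to-middle loss. For CesA12 the difference under –Fe–Zn was 1.16 (adjusted p = 0.0204), and it was not called without the third control root replicate (1.02, adjusted p = 0.0565), the third –Fe–Zn root replicate (0.85, adjusted p = 0.0608) or the second –Fe–Zn shoot replicate (0.90, adjusted p = 0.0638), nor under the scaling, covariate and groups-alone settings given for it above.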

How the results depend on the processing

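Of 591 alternative values of CesA10, CesA11 and CesA12 over all comparisons, 524 kept direction and side of the threshold, 34 passed it newly, 19 no longer passed it and 14 changed sign, and the cause was not tested. The replicate block (replicate number as a block, not a pairing known from the labels) changed no call of the 3 genes, with CesA10 at −1.01 in –Fe roots, and moved the count of all probe sets called there from 4540 to 4457. Another variance prior and leaving out the control probe sets changed none either. Depth is not known for arrays, and CesA11 lies close to the lowest value in every shoot group, which limits what its differences there can show.

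Scaling: in –Fe–Zn roots CesA10 turned to 0.018 with quantile normalization and 0.13 with median centring, CesA12 was no longer called (−0.50 and −0.57) and 0 members were called under both. In –Fe–Zn shoots CesA11 turned to −0.23 and −0.050, and against –Fe shoots to −0.089 with quantile normalization. For shoot minus root under –Fe–Zn, CesA12 was no longer called (0.73 and 0.81), CesA10 turned to −0.029 with centring, and 0 members were called. For root Fe by Zn, CesA11 was called with centring (1.47), giving 2 members. In –Fe–Zn against –Fe roots 2 members were called with centring and 2 with the filter on dim probe sets.

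With the 3′-to-middle covariate, CesA11 was called in –Zn roots (−0.76, 1 member called), –Fe roots (−1.21), –Zn shoots (0.53) and –Fe shoots (−1.88, 1 member called), for root Fe by Zn (1.26, 2 members called) and for shoot minus root under –Zn (1.28). CesA11 turned to −0.71 in –Fe–Zn roots, to 1.72 for shoot Fe by Zn, to −0.67 and 1.08 for shoot minus root under –Fe and –Fe–Zn (2 members called under the latter), and to 0.59 and 0.39 for shoot against root under –Zn and –Fe–Zn. CesA10 turned to −0.15 in –Fe shoots and to 0.45 in –Fe–Zn against –Fe shoots, was no longer called for shoot Fe by Zn (−0.74) and was called for shoot minus root under –Fe–Zn (0.68). CesA12 was no longer called in –Fe–Zn roots (−0.78) or for shoot minus root under –Fe–Zn (1.11).

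Arrays in the model: the differences stay and the spread changes. CesA11 was called in –Fe roots (−0.87) and –Zn shoots (0.52) without the root –Fe–Zn arrays and with the groups compared alone, and in –Zn shoots also with 1 fit per tissue. It was called for shoot minus root under –Zn (0.77) and –Fe (0.71, 2 members) in the same settings. CesA10 was called in –Fe shoots (0.39, 1 member) in those 2 settings and in –Zn roots with the groups compared alone (−0.25, 1 member). CesA12 was no longer called in –Fe–Zn roots (−0.82, 0 members) with 1 fit per tissue or the groups compared alone, nor for shoot minus root under –Fe–Zn (1.16, 0 members) with the latter. With the groups compared alone, 0 members were called in –Fe–Zn against –Zn roots, –Fe–Zn against –Fe roots and –Fe–Zn against –Fe shoots, and 1 in –Fe–Zn against –Zn shoots. With 1 fit per tissue 2 were called in –Fe–Zn against –Fe shoots.

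At p under 0.05 and 2-fold, and at adjusted p under 0.05 and 2-fold, 0 members were called in –Fe–Zn roots, –Fe–Zn against –Zn roots, –Fe–Zn against –Fe roots and –Fe–Zn against –Fe shoots, and 1 in –Fe against –Zn roots, –Fe against –Zn shoots and –Fe–Zn against –Zn shoots. For root Fe by Zn 2 were called with the unadjusted p.

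Leaving out each array kept 437 of 468 values. The others ranged as follows. In –Zn roots CesA12 ran from −0.015 to 0.29. In –Fe–Zn roots CesA10 ran from −0.34 to 0.095, CesA11 from −0.43 to 0.86 and CesA12 from −1.08 to −0.51, with 0 to 2 members called. In –Fe–Zn shoots CesA11 ran from −0.025 to 0.12. For root Fe by Zn CesA11 ran from 0.68 to 1.97 and CesA12 from −0.15 to 0.41, with 1 to 2 called. For shoot minus root under –Fe–Zn CesA11 ran from −0.80 to 0.49 and CesA12 from 0.85 to 1.44, with 0 to 2 called. In –Fe–Zn against –Zn roots CesA10 ran from −0.10 to 0.34 and CesA11 from −0.19 to 1.11, with 0 to 2 called, and against –Fe roots CesA12 ran from −0.0053 to 0.56, with 1 to 2 called. In –Fe–Zn against –Fe shoots 0 to 1 were called. For shoot against root under –Zn 2 to 3 were called, CesA11 being lost without the third –Zn root replicate (−1.07, adjusted p = 0.0613).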

Other observations

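Alpha and beta tubulins form the cortical microtubules along which cellulose synthases move. For tubulins 21 probe sets of 12 genes are annotated, among them those of the gamma tubulin genes tubg1 and tubg2. In –Fe roots 11 of the 21 were called lower and 1 higher (median difference −0.46 against 0.00 over all probe sets), beside 10.9% of all probe sets called lower, and in –Fe–Zn roots 13 were lower and 3 higher (median −0.66), beside 20% called lower. In –Zn shoots 9 were called higher and 2 lower (median 0.22), beside 20.3% and 19% of all probe sets. Among the higher were tua5 at 1.17, tub4 at 1.48, tua6 at 0.92 and tubg2 at 1.77. The 2 lower were probe sets of tubg1, at −1.95 and −0.28, and the 1 higher in –Fe roots was tubg2 at 1.39. In –Fe shoots the count was 3 higher and 9 lower, beside 17% and 16.4%. For tub6, 1 probe set stood at −3.84 in –Fe roots and 2.32 in –Zn shoots, whereas another of the same gene stood at −0.71 and 0.07, so the probe sets of that gene disagreed.

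Of 21 probe sets of expansins, a xyloglucan endotransglycosylase and structural wall proteins, 2 were called higher in –Zn shoots (xet1 and expB7, at 1.03) and 2 lower (expA1 and expA5, at −0.39), beside 20.3% and 19% of all probe sets, and several others had a difference of 0. The genes expB7 and expA5 are named because the counts are small, after their values were seen. The expansin gene expA1 was lower in each stressed shoot, at −2.56 with –Zn, −2.98 with –Fe and −2.44 with –Fe–Zn. The xyloglucan endotransglycosylase gene xet1 was lower in –Fe roots at −1.80 and higher in –Zn, –Fe and –Fe–Zn shoots at 1.44, 1.66 and 2.19, all called.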
